A study of Mus musculus with 20 samples.

Results

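The unfolded protein response and the ATF4 stress response were followed in mouse kidney through 10 genes: Hspa5, Hsp90b1, Sdf2l1, Xbp1, Herpud1, Atf4, Ddit3, Trib3, Asns and Chac1. They were taken by exact match of the gene symbol, and each had 1 row in both deposited tables, among 26608 genes in the LOY table and 30809 in the ABT263 table. The kidneys came from aged mice that had received a bone marrow transplant, so that the blood system of every animal came from transplanted marrow. LOY stands for loss of the Y chromosome from the blood-forming cells, a change that men acquire with age. In the LOY table, 6 mice with LOY marrow (animals 5, 8, 9, 10, 14 and 18) were set against 6 mice with Control marrow (animals 3, 11, 12, 13, 16 and 17). The ABT263 table held mice with LOY marrow alone, 4 given ABT-263 (animals 15, 16, 17 and 18) and 4 given a control compound (animals 6, 8, 9 and 10). ABT-263, or navitoclax, is a senolytic, a compound that kills senescent cells, and it acts by blocking BCL-2 family proteins. The labels call LOY a genotype; how the marrow was made LOY, the strain, sex, age in months and dose are not stated, and nothing says that the kidney cells of the recipients were edited. Each library was 1 animal, and every level is from whole kidney, where fewer cells of a type and less RNA per cell cannot be told apart.

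Proteins that enter the secretory pathway fold in the endoplasmic reticulum (ER). When unfolded proteins build up, the sensors IRE1, PERK and ATF6 start the unfolded protein response. IRE1 splices the mRNA of Xbp1 into a form that encodes an active transcription factor, and ATF6 is cut to release another. Both raise ER chaperones such as BiP (Hspa5) and GRP94 (Hsp90b1), the BiP cofactor Sdf2l1 and Herpud1, which serves ER-associated degradation. PERK, and related kinases that sense amino acid shortage, viral RNA or heme shortage, phosphorylate eIF2alpha. This lowers protein synthesis while it raises translation of ATF4, which turns on Ddit3 (the transcription factor CHOP), Trib3 (a pseudokinase), Asns (asparagine synthetase) and Chac1 (a glutathione-degrading enzyme). ATF4 is controlled largely at translation and Xbp1 at splicing, and gene counts measure neither step. In the kidney the response is best known from injured tubule cells, which carry a heavy load of protein synthesis and transport.

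The promoters are shown because each arm is known for its own DNA element, and 6 of the 10 genes held at least 1 of those elements. The RefSeq promoters (GRCm38.p6, 250 bases before to 50 after the start) were searched on both strands. The motifs were the ER stress response element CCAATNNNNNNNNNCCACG, its shorter second form (ERSE-II), the composite element of ATF4 with C/EBP proteins TGATGNAA, and the XBP1 core TGACGTG. Capitals mark the matches, including the bases that may vary. No matches overlapped, and the 6 promoters with a match are shown 5′ to 3′.
Hspa5, chr2:34771840-34772139, + strand: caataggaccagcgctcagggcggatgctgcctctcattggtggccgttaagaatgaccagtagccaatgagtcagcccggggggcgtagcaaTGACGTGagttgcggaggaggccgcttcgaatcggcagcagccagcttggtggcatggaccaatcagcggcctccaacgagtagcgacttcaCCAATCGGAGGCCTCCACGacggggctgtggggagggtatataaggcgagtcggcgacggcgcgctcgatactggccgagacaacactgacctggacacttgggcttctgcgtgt
Hsp90b1, chr10:86705395-86705694, - strand: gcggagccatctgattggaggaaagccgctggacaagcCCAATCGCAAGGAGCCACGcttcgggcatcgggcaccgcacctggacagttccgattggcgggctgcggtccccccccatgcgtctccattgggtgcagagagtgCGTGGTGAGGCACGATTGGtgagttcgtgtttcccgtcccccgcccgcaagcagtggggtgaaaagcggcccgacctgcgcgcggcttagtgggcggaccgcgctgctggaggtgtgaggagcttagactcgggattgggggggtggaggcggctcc
Herpud1, chr8:94386179-94386478, + strand: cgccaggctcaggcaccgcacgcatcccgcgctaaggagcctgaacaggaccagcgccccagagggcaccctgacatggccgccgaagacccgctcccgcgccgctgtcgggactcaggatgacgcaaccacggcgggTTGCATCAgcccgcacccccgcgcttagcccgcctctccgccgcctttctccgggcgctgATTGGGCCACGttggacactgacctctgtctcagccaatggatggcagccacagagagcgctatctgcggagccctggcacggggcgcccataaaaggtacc
Trib3, chr2:152344011-152344310, - strand: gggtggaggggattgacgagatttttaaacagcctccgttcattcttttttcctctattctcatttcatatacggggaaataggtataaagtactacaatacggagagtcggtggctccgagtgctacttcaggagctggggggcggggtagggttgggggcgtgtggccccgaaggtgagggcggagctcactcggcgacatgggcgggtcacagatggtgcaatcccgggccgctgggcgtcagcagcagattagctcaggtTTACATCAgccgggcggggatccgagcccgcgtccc
Asns, chr6:7693160-7693459, - strand: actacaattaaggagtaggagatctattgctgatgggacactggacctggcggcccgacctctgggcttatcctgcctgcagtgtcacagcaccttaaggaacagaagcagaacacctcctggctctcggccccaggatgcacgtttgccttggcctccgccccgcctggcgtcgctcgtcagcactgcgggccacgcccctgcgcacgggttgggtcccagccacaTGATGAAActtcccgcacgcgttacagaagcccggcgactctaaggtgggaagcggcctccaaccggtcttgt
Chac1, chr2:119350992-119351291, + strand: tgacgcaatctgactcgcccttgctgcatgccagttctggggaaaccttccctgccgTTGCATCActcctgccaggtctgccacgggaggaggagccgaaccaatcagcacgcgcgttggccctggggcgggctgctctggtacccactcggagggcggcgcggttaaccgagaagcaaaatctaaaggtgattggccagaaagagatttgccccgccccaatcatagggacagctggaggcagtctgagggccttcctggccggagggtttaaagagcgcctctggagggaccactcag
Hspa5 held the ER stress response element 65 to 47 bases before the start and the XBP1 core 157 to 151 bases before it. Hsp90b1 held 2 copies of the ER stress response element in opposite orientations, and Herpud1 held the second form 52 to 42 bases before the start as well as a composite element. Trib3, Asns and Chac1 each held 1 composite element, that of Trib3 lying 14 to 21 bases after the start. Of 32851 promoters of that length, 0.119% held the ER stress response element, 0.0365% its second form, 3.97% the composite element and 2.01% the XBP1 core. Atf4, Ddit3, Xbp1 and Sdf2l1 had none of these letters in this window. These matches describe sequence and were not tied to binding here.

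Total gene counts lay between 13332563 and 19386408 per kidney in the LOY table and between 14587809 and 20791633 in the ABT263 table. Kidney markers were abundant in every group: the phosphate transporter Slc34a1 averaged 4731 ± 1309 CPM (counts relative to the TMM-scaled library total) in LOY and 6690 ± 493 CPM in Control kidneys (SD, n = 6 each). Some kidneys stood apart. The summed injured tubule markers reached 7199 CPM in LOY animal 10, and LOY animals 8 and 10 had the lowest summed proximal tubule markers of their table (8748 and 6280 CPM). ABT263 animal 16 had 18857 CPM of injured tubule markers, against 1512 to 2242 CPM in the other 3 ABT263 kidneys. A marker sum follows its highest genes, such as Spp1 for injured tubule and Fabp4 for adipocyte markers, and does not count cells. Animal number was unevenly spread: 4 of 6 LOY kidneys but only Control animal 3 were numbered 10 or below, and in the ABT263 table all control compound kidneys were numbered 10 or below and all ABT263 kidneys above. What the numbers stand for is not stated.

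LOY kidneys were compared with Control kidneys to ask how a LOY blood system bears on the kidney. Of the 10 stress genes, 9 had a higher fitted level in LOY kidneys and Herpud1 a lower one, but 0 passed the edgeR test at an adjusted p of 0.05. Of all 14978 tested genes 1.18% passed, 1.11% higher and 0.0601% lower, and fold changes were above 0 for 52.3% and below 0 for 47.7%. At an unadjusted p under 0.05, 6 of the 10 were higher and 0 lower, beside 13.5% of all tested genes higher and 9.33% lower (22.8% either way). The median log2 fold change of the 10 was 0.53, beside 0.019 over all tested genes. In each of the 10 genes the LOY and Control ranges overlapped, whereas 2.02% of all tested genes had groups that did not overlap, 1.56% higher and 0.461% lower in LOY. The spread among LOY kidneys was wide, and the highest kidney differed from gene to gene.

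**Figure D1:**
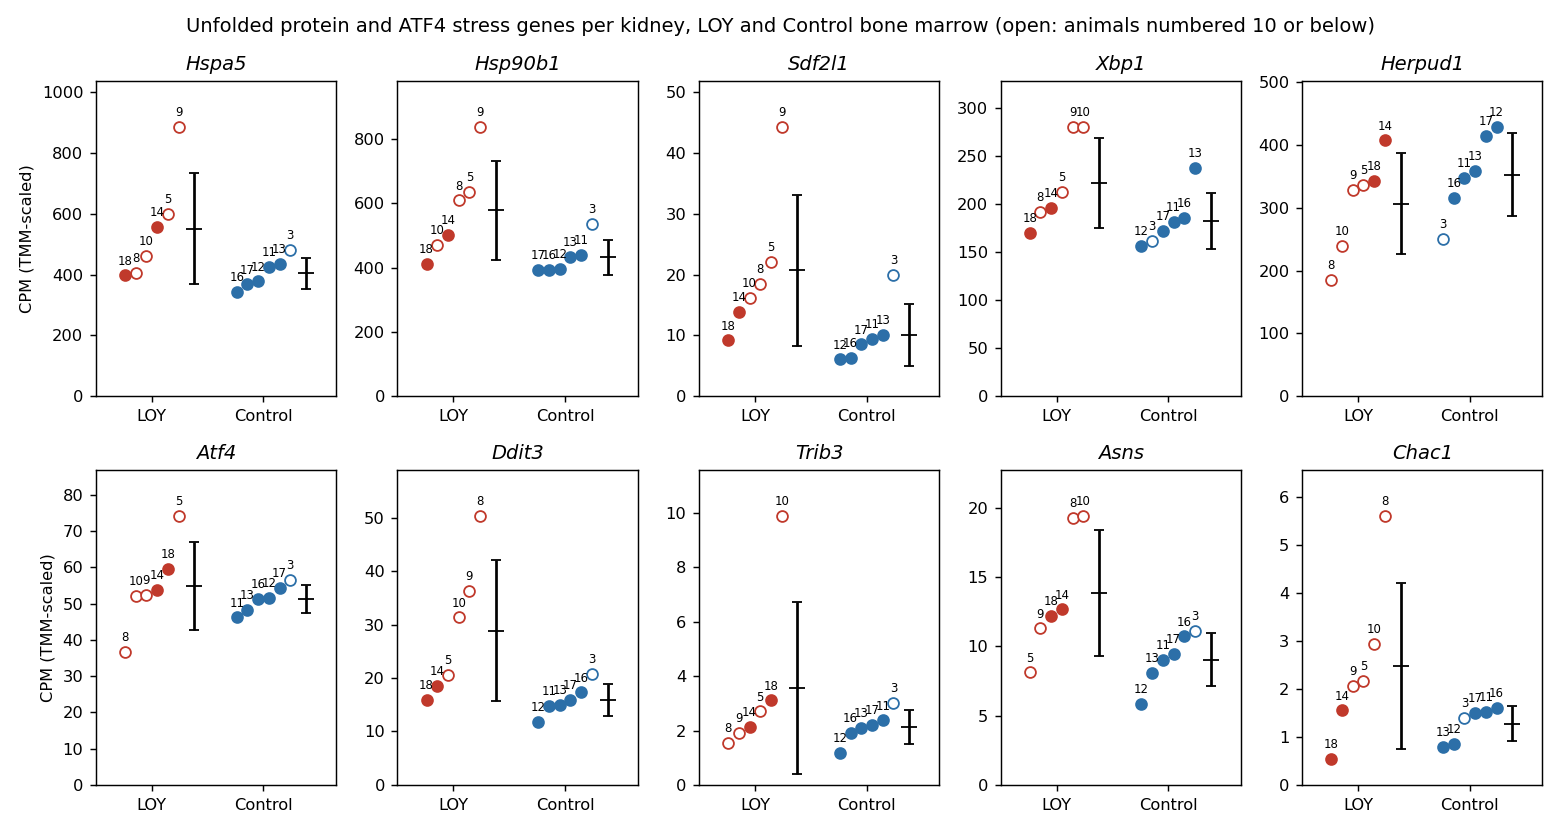
CPM of the 10 genes in each kidney of the LOY table (vertical axes, TMM-scaled, from 0), LOY left and Control right, with animal numbers beside the points, open points for animals numbered 10 or below, and black bars for mean ± SD (n = 6 each). The highest values of Hspa5, Hsp90b1 and Sdf2l1 belong to LOY animal 9, those of Ddit3 and Chac1 to LOY animal 8, and those of Trib3, Asns and Xbp1 to LOY animal 10.

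Hspa5 encodes BiP, the HSP70 of the ER, which also holds the stress sensors inactive (chromosome 2, 34771970 to 34777547, GRCm38). It ran from 398 through a median of 510.2 to 887 CPM in LOY kidneys, against 343 through 402 to 481 CPM in Control kidneys. LOY animals 5, 9 and 14 lay above every Control kidney, and the other 3 lay within the Control range. Its log2 fold change was 0.45 ± 0.18 (SE, 95% interval 0.06 to 0.83, edgeR adjusted p = 0.182). Hsp90b1, the HSP90 of the ER (chromosome 10, 86690209 to 86705509), ran from 412 through 556 to 839 CPM in LOY kidneys, against 393 through 416 to 537 CPM in Control kidneys. Its change of 0.42 ± 0.16 (edgeR adjusted p = 0.168) was close to that of Hspa5 in size, and LOY animals 5, 8 and 9 lay above every Control kidney. Without LOY animal 9 the log2 fold changes were 0.26 for Hspa5 and 0.28 for Hsp90b1. Under limma voom with sample quality weights both passed, Hspa5 at 0.57 (adjusted p = 0.0236) and Hsp90b1 at 0.47 (adjusted p = 0.0379).

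Sdf2l1, which helps BiP and its J-protein partners keep clients soluble, had the largest fitted change of the 10 (chromosome 16, 17130138 to 17132383). It ran from 9.17 through 17.3 to 44.3 CPM in LOY kidneys, against 6.05 through 8.98 to 19.96 CPM in Control kidneys. LOY animals 5 and 9 exceeded every Control kidney, and Control animal 3 stood well above the other Control kidneys. That kidney also stood apart in markers: adipocyte markers summed to 269 CPM there and to 33.6 to 58.5 CPM in the other Control kidneys, and it had the highest injured tubule sum (2683 CPM) and the lowest thick limb and distal tubule sum (3969.9 CPM) of the Control group. The log2 fold change was 1.04 ± 0.36 (edgeR adjusted p = 0.144), a 2.05-fold difference with an interval of 1.21 to 3.49. It passed without Control animal 3 (1.35, edgeR adjusted p = 0.0422) and under voom (1.13, adjusted p = 0.0484), and was 0.66 without LOY animal 9.

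Xbp1, the transcription factor downstream of IRE1, and Herpud1, an ER membrane protein that assembles the degradation complex, had smaller fitted differences than the chaperones, Herpud1 in the opposite direction. Xbp1 (chromosome 11, 5520659 to 5525893) ran from 170 through 204 to 281 CPM in LOY kidneys, against 157 through 177 to 238 CPM in Control kidneys. LOY animals 9 and 10 were above the Control range, and the log2 fold change was 0.28 ± 0.15 (edgeR adjusted p = 0.253). Spliced and unspliced forms share these counts. Herpud1 (chromosome 8, 94386438 to 94395377) was the 1 gene of the 10 with a lower fitted level, running from 185 through 333 to 408 CPM in LOY kidneys, against 251 through 354 to 429 CPM in Control kidneys. LOY animals 8 and 10 were below every Control kidney, and the log2 fold change was -0.20 ± 0.18 (95% interval -0.59 to 0.18, edgeR adjusted p = 0.491). It was -0.094 without LOY animal 8 and close to 0 without LOY animals 8 and 10.

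Atf4 itself differed little between the groups (chromosome 15, 80255184 to 80257541). It ran from 36.8 through 53.0 to 74.3 CPM in LOY kidneys, against 46.2 through 51.3 to 56.6 CPM in Control kidneys. The LOY values lay on both sides of the narrow Control range, lowest in LOY animal 8 and highest in LOY animal 5. The log2 fold change was 0.094 ± 0.13 (95% interval -0.19 to 0.38, edgeR adjusted p = 0.675), and leaving out LOY animal 5 gave -0.026, leaving out animal 8 gave 0.18 and leaving out animal 18 gave 0.060.

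Ddit3 encodes CHOP, the transcription factor of the late, death-promoting phase of the response, and had the smallest p of the 10 (chromosome 10, 127290774 to 127296288). It overlaps Gm4189 and the end of the tRNA synthetase gene Mars (127296221 to 127311786), both on the opposite strand. In the shared stretches, reads of the strands may not have been kept apart. Ddit3 ran from 15.9 through 25.9 to 50.4 CPM in LOY kidneys, against 11.7 through 15.4 to 20.8 CPM in Control kidneys. LOY animals 8, 9 and 10 lay above every Control kidney, animal 5 just below the highest of them, and animals 14 and 18 within the Control range. The log2 fold change was 0.86 ± 0.25 (95% interval 0.32 to 1.39, edgeR adjusted p = 0.103), a 1.81-fold difference. Other settings crossed the threshold: DESeq2 gave 0.85 (adjusted p = 0.0286), and edgeR without LOY animal 18 gave 0.98 (adjusted p = 0.0492).

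The downstream targets of ATF4 and CHOP had low levels, and Chac1 and Trib3 spread widely among LOY kidneys. Asns, which makes asparagine from aspartate and glutamine (chromosome 6, 7675169 to 7693254), ran from 8.11 through 12.4 to 19.4 CPM in LOY kidneys, against 5.81 through 9.25 to 11.1 CPM in Control kidneys. LOY animal 5 was inside the Control range and the other 5 LOY kidneys above it, with a log2 fold change of 0.61 ± 0.22 (edgeR adjusted p = 0.152). That change was 0.48 to 0.72 when each kidney was left out. Over the other tools, scalings, filters and subsets of animals it was 0.28 to 0.63. Chac1, a CHOP and ATF4 target that breaks down glutathione (chromosome 2, 119351229 to 119354381), ran from 0.534 through 2.12 to 5.62 CPM in LOY kidneys, against 0.784 through 1.46 to 1.61 CPM in Control kidneys. LOY animals 5, 8, 9 and 10 lay above every Control kidney while LOY animal 18 was the lowest of all 12, and the log2 fold change was 0.94 ± 0.44 (edgeR adjusted p = 0.216), or 0.53 without LOY animal 8. Trib3, a pseudokinase that CHOP and ATF4 induce (chromosome 2, 152337422 to 152344032), ran from 1.55 through 2.43 to 9.91 CPM in LOY kidneys, against 1.16 through 2.15 to 3.03 CPM in Control kidneys. Here a single kidney set the mean: with LOY animal 10 the log2 fold change was 0.75 ± 0.42 (edgeR adjusted p = 0.287), and without it 0.092. Chac1 rested on 11 to 76 counts per kidney and Trib3 on 15 to 175, so counting error alone was larger for these than for the chaperones.

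**Figure D2:**
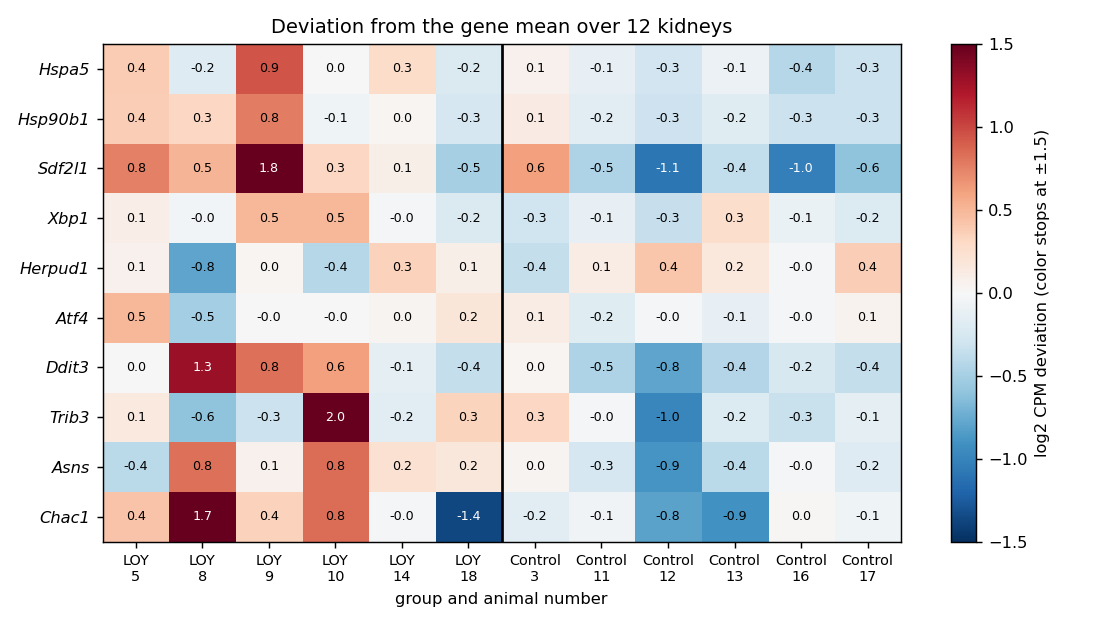
Deviation of log2 CPM from the mean of each gene over the 12 kidneys of the LOY table (rows, genes; columns, LOY kidneys and then Control kidneys by animal number; red above and blue below the mean, with the value in each cell). LOY animal 9 is high for Hspa5, Hsp90b1 and Sdf2l1, LOY animal 8 for Ddit3 and Chac1 while low for Herpud1 and Atf4, and Control animal 12 has the lowest level of 5 of the 10 genes.

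The kidney with the highest level differed between genes, also within an arm, as the map of deviations by kidney shows. Of the 10 genes, 3 were highest in LOY animal 9 (Hspa5, Hsp90b1 and Sdf2l1), 3 in LOY animal 10 (Trib3, Asns and Xbp1), 2 in LOY animal 8 (Ddit3 and Chac1), 1 in LOY animal 5 (Atf4) and 1 in Control animal 12 (Herpud1). In LOY animal 8, Ddit3 was at 50.4 CPM while Hspa5 was at 406 CPM, within the Control range. Correlations of log2 CPM were computed for 9 pairs of genes within each group of 6 kidneys, 18 in all, and 0 passed after Benjamini-Hochberg adjustment of the exact permutation p. Hspa5 and Hsp90b1 had a Pearson r of 0.80 within LOY kidneys (exact p = 0.0667, adjusted 0.171; Spearman rho 0.83, exact p = 0.0583, adjusted 0.263). Within Control kidneys r was 0.91 (exact p = 0.0167, adjusted 0.117; rho 0.89, exact p = 0.0333, adjusted 0.263). Leaving out the 2 kidneys farthest from the median of Hspa5 gave 0.087 in LOY kidneys (without animals 9 and 18) and 0.98 in Control kidneys (without animals 3 and 16). That step narrows the range of Hspa5 and leaves 4 kidneys, so it cannot show which kidneys carry a relation. Ddit3 and Chac1 had an r of 0.86 within LOY kidneys (exact p = 0.0194, adjusted 0.117; rho 0.83, exact p = 0.0583, adjusted 0.263), and 0.59 without LOY animals 8 and 18. Within Control kidneys their r was 0.59 (exact p = 0.306, adjusted 0.550; rho 0.31, exact p = 0.564, adjusted 0.781). Atf4 and Asns had an r of -0.83 within LOY kidneys (exact p = 0.0444, adjusted 0.171) and a rho of -0.77 (exact p = 0.103, adjusted 0.308). Their r was -0.38 without LOY animals 5 and 8. Scaled by library totals alone in place of TMM, r over the 6 LOY kidneys was -0.49 (exact p = 0.342, adjusted 0.439). Within Control kidneys their r was 0.31 (exact p = 0.556, adjusted 0.718; rho 0.49, exact p = 0.356, adjusted 0.640). Hspa5 and Ddit3 had an r of 0.095 within LOY kidneys (exact p = 0.844, adjusted 0.872; rho 0.26, exact p = 0.658, adjusted 0.846) and of 0.38 within Control kidneys (exact p = 0.456, adjusted 0.683; rho 0.086, exact p = 0.919, adjusted 0.919). Without LOY animals 9 and 18 the LOY value was -0.96. The other 5 pairs had an r between -0.15 and 0.85 within LOY kidneys and between -0.56 and 0.89 within Control kidneys. Hspa5 with Sdf2l1 was the highest of them in each group. Its r had an exact p of 0.0667 (adjusted 0.171) in LOY and 0.0194 (adjusted 0.117) in Control kidneys. Its rho was 0.77 (exact p = 0.103, adjusted 0.308) and 0.83 (exact p = 0.0583, adjusted 0.263). Without the 2 kidneys farthest from the median of Hspa5, r was 0.11 in LOY and 0.70 in Control kidneys.

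Animal number moved with several of these values. Among the LOY kidneys, animals 5, 8, 9 and 10 had 20.5 to 50.4 CPM of Ddit3 and animals 14 and 18 had 18.6 and 15.9 CPM, while Control animal 3 had 20.8 CPM and the Control kidneys numbered above 10 had 11.7 to 17.3 CPM. Sdf2l1 was likewise at 16.2 to 44.3 CPM in LOY animals 5, 8, 9 and 10 and at 13.8 and 9.17 CPM in LOY animals 14 and 18. In Control animal 3 it was at 19.96 CPM and in the Control kidneys numbered above 10 at 6.05 to 10.1 CPM. With animal number above 10 as a term in the edgeR fit, the log2 fold changes were 0.39 for Ddit3, 0.44 for Sdf2l1, 0.29 for Hspa5, 0.19 for Hsp90b1 and 0.48 for Asns, and 0 of the 10 had an unadjusted p under 0.05. Between the animals numbered above 10 (LOY n = 2, Control n = 5) they were 0.20, 0.49, 0.29, 0.15 and 0.52. Markers of other cell types moved with LOY as well, in the fit without animal number. At the threshold 1.11% of all tested genes rose in that fit. With animal number as a term, 0 genes of the whole table passed. Of the injured tubule markers 6 of 6 rose, and their summed level was 2871 to 7199 CPM in LOY and 1348 to 2683 CPM in Control kidneys. Spp1 made up most of that sum, at 3940 ± 1583 CPM in LOY and 1660 ± 432 CPM in Control kidneys (SD). Among macrophage markers 4 of 7 rose, with a summed level of 374 to 497 CPM in LOY and 205 to 336 CPM in Control kidneys. Of these markers Lyz2 was at 165 ± 37.1 CPM in LOY and 71.1 ± 11.8 CPM in Control kidneys. Csf1r was at 107 ± 15.1 and 104 ± 11.6 CPM (edgeR adjusted p = 0.817). Among T cell markers 3 of 6 rose, with a summed level of 16.0 to 25.9 CPM in LOY and 7.36 to 10.8 CPM in Control kidneys. Proximal tubule markers had 0 of 10 past the threshold, all 10 with a negative fold change, and summed to 6280 to 11835 CPM in LOY and 11343 to 15485 CPM in Control kidneys. Plasma and B cell markers, whose cells carry high Xbp1, had 0 of 8 past the threshold, all 8 with a positive fold change (median 0.80), and summed to 55.4 to 156 CPM in LOY and 30.7 to 107 CPM in Control kidneys; Ms4a1 and Tnfrsf17 were at 0 counts in at least 1 kidney. The part of animal number and of these cell types in the stress gene values was not tested.

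**Figure D3:**
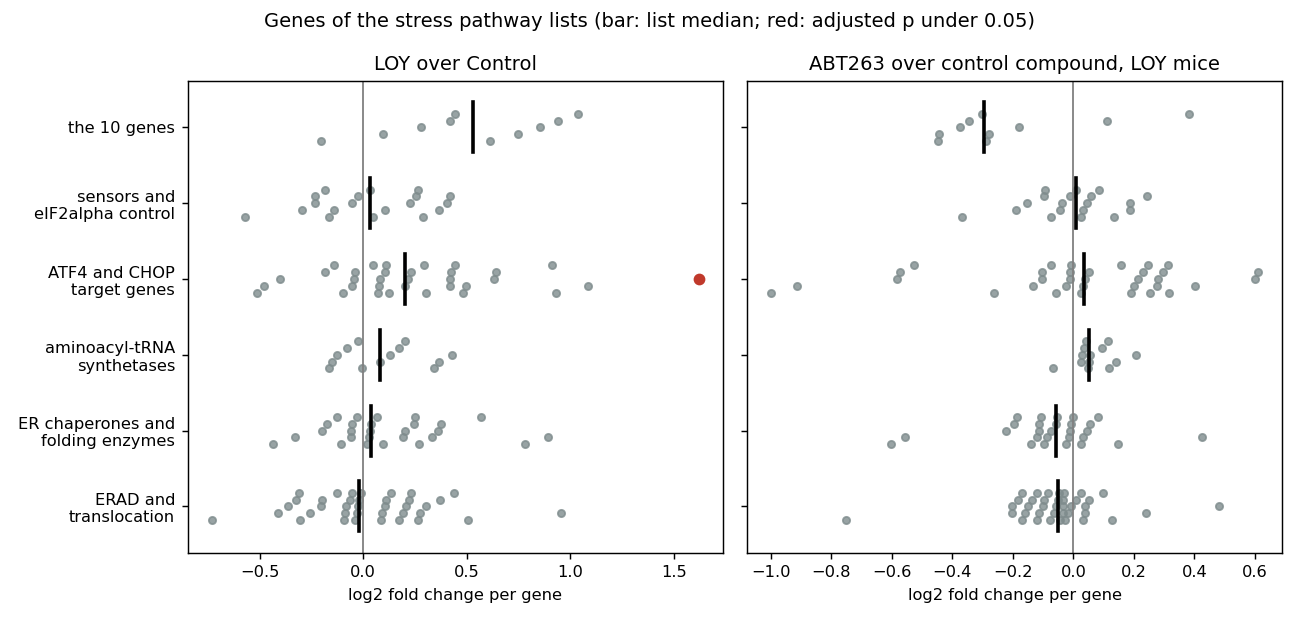
Fitted log2 fold change of each tested gene (horizontal axis) in the 10 genes and in 5 further lists of the pathway, for LOY over Control on the left and ABT263 over control compound on the right, with a bar at each list's median and red for an adjusted p under 0.05. Atf3 in the left panel is the only red point, and the median of the 10 genes is 0.53 on the left and -0.29 on the right.

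The rest of the pathway was read from 5 further lists. Among 33 tested ATF4 and CHOP target genes, 1 rose and 0 fell, with a median log2 fold change of 0.20 (24 positive, 9 negative). At an unadjusted p under 0.05, 10 were higher and 2 lower, beside 13.5% and 9.33% of all tested genes. The 2 lower were Vldlr (-0.48 ± 0.13, edgeR adjusted p = 0.0866) and Sesn2 (-0.51 ± 0.21, edgeR adjusted p = 0.177). The gene that rose was Atf3, a stress-induced repressor of the ATF/CREB family (chromosome 1, 191170296 to 191218039). It ran from 5.08 through 9.11 to 18.0 CPM in LOY kidneys, against 1.72 through 3.00 to 6.65 CPM in Control kidneys. LOY animals 8, 9, 10 and 18 lay above every Control kidney, and animals 5 and 14 lay below Control animal 3 alone. Its log2 fold change was 1.62 ± 0.35 (edgeR adjusted p = 0.0412), 1.28 with animal number as a term (adjusted p = 0.147), 1.58 among the animals numbered above 10 (adjusted p = 0.00401) and 1.15 without LOY animals 8 and 10 (adjusted p = 0.128). The call was also lost without LOY animal 9 or 10, or without Control animal 11, 12, 13, 16 or 17 (adjusted p = 0.0596 to 0.130), and with library totals alone (adjusted p = 0.0509). Mthfd2, a mitochondrial enzyme of folate metabolism that ATF4 induces, had 10.9 ± 3.70 CPM in LOY and 5.76 ± 1.31 CPM in Control kidneys and missed the threshold (0.91 ± 0.23, edgeR adjusted p = 0.0634). It passed in 5 of 22 other settings, over which its log2 fold change was 0.57 to 1.02.

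Of 27 ER chaperones and folding enzymes beyond the 10 genes, 0 passed, 17 had a positive and 10 a negative fold change, and the median was 0.038. Manf, a secreted ER stress protein, had 86.0 ± 36.8 CPM in LOY and 46.2 ± 12.7 CPM in Control kidneys (0.89 ± 0.25, edgeR adjusted p = 0.0915). Creld2, another ER stress protein, had 52.4 ± 22.6 CPM in LOY and 30.4 ± 6.36 CPM in Control kidneys (0.78 ± 0.23, adjusted p = 0.100). Both passed under DESeq2 (adjusted p = 0.0191 for Manf and 0.0286 for Creld2) and under voom (adjusted p = 0.0299 for Manf and 0.0226 for Creld2). Among 19 tested sensors and eIF2alpha regulators 0 passed (median 0.034). In this list the groups of Eif2s1, which encodes eIF2alpha itself, did not overlap, at 54.6 to 61.2 CPM in LOY and 42.7 to 48.6 CPM in Control kidneys (0.29 ± 0.08, edgeR adjusted p = 0.0803). Eif2s1 passed in 2 of 22 other settings, over which its log2 fold change was 0.25 to 0.30. Traf2, an adaptor of IRE1, had a value of 0.42 ± 0.14 (adjusted p = 0.141). The list of cytosolic aminoacyl-tRNA synthetases held 13 genes, the tRNA exporter Xpot included, and 0 passed (median 0.083). In it the smallest p was for Wars at 0.37 ± 0.13 (adjusted p = 0.147) and Sars at 0.34 ± 0.15 (adjusted p = 0.194). Of 37 tested genes of ER-associated degradation and translocation 0 passed, 17 positive and 20 negative, with a median of -0.022. The translocon subunit Ssr2 had 0.37 ± 0.14 (adjusted p = 0.164) and the KDEL receptor Kdelr2, which returns BiP and GRP94 to the ER, 0.30 ± 0.12 (adjusted p = 0.165).

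Levels between genes were compared per length, as CPM per kilobase of merged GENCODE M21 exons. In LOY kidneys the order was Hsp90b1 (143 ± 37.9), Herpud1 (132 ± 34.4), Hspa5 (131 ± 43.3), Xbp1 (68.4 ± 14.6), Atf4 (23.2 ± 5.16), Sdf2l1 (18.7 ± 11.1), Ddit3 (16.8 ± 7.69), Asns (5.05 ± 1.67), Trib3 (1.67 ± 1.49) and Chac1 (1.52 ± 1.06), as mean ± SD of CPM per kilobase. In Control kidneys Herpud1 came first (151 ± 28.1), followed by Hsp90b1 (107 ± 13.8), Hspa5 (95.9 ± 12.1) Xbp1 (56.3 ± 9.05), Atf4 (21.8 ± 1.62), Ddit3 (9.29 ± 1.76), Sdf2l1 (9.08 ± 4.62), Asns (3.30 ± 0.702), Trib3 (1.002 ± 0.287) and Chac1 (0.782 ± 0.222). In LOY kidneys the neighbours among Hsp90b1, Herpud1 and Hspa5, Atf4, Sdf2l1 and Ddit3, and Trib3 and Chac1 differed by less than their SDs. In Control kidneys this held for Hsp90b1 with Hspa5, Ddit3 with Sdf2l1, and Trib3 with Chac1, while Herpud1 stood above Hsp90b1 by more than either SD.

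ABT-263 was compared with the control compound in mice with LOY marrow to ask what a senolytic changes in these kidneys. Of the 10 genes, 8 had a lower fitted level with ABT-263 and Asns and Chac1 a higher one, and again 0 passed the edgeR test at an adjusted p of 0.05. Of the 16956 tested genes 0% passed in either direction (1002 at an unadjusted p under 0.05, 44 by DESeq2 and 11 by voom). At an unadjusted p under 0.05, 5 of the 10 were lower and 0 higher, beside 2.96% of tested genes lower and 2.95% higher (5.91% either way). Fold changes over all tested genes were below 0 for 50.6% and above 0 for 49.4%. The median log2 fold change of the 10 was -0.29, beside -0.0028 over all tested genes. Atf4 and Ddit3 had ABT263 values wholly below the control compound values, as did 2.25% of all tested genes (2.04% the other way, 4.29% in all). Treatment and animal number cannot be told apart in this table.

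**Figure D4:**
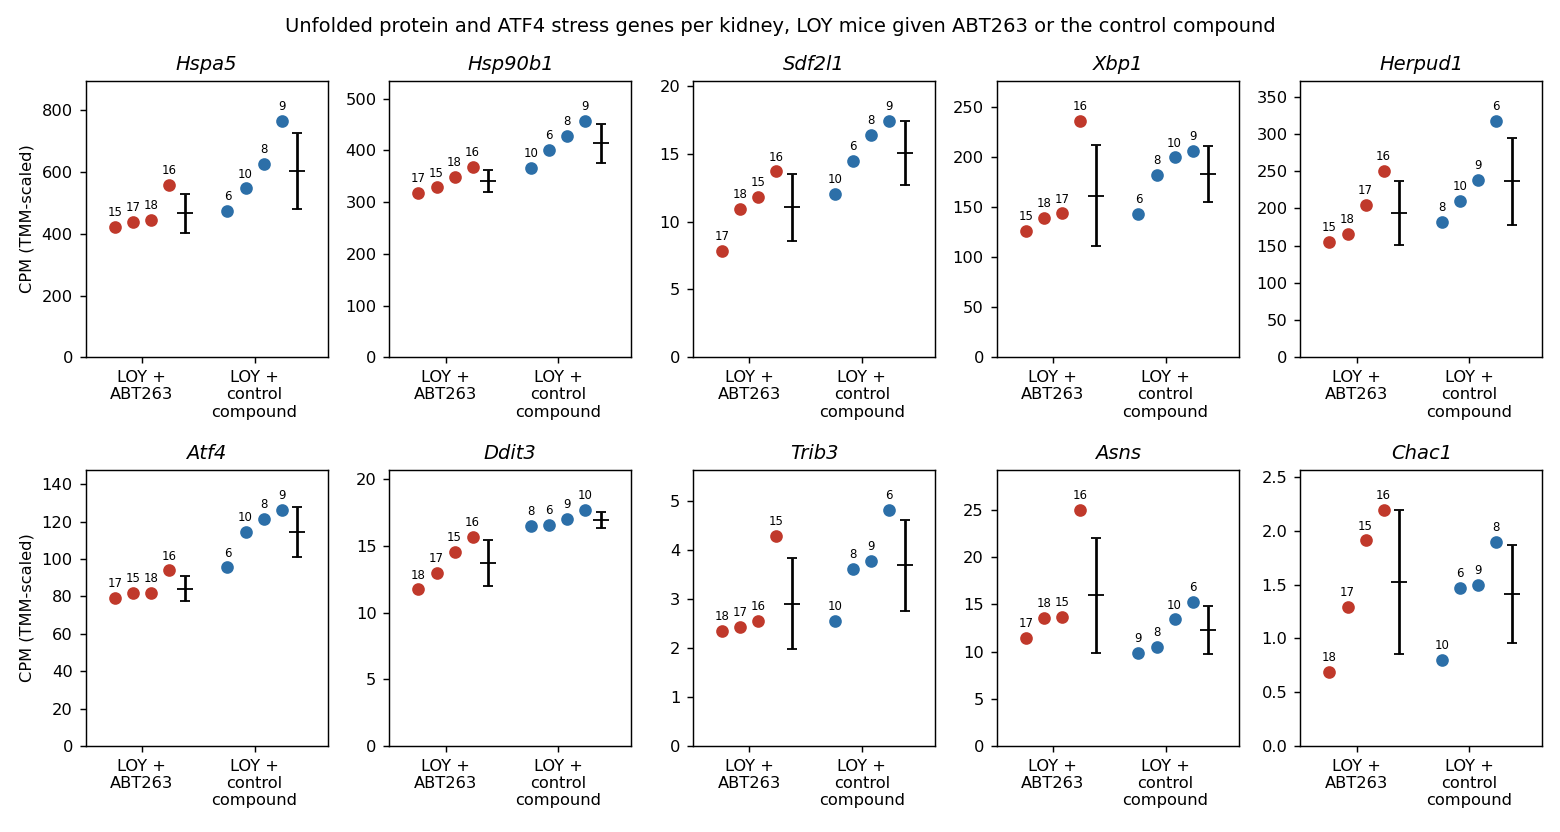
CPM of the 10 genes in each kidney of the ABT263 table (vertical axes, TMM-scaled, from 0), ABT263 left and control compound right, with animal numbers beside the points and black bars for mean ± SD (n = 4 each). All ABT263 kidneys lie below all control compound kidneys for Atf4 and Ddit3, and animal 16 is the highest ABT263 kidney for 9 of the 10 genes.

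Atf4, the transcription factor at the head of the eIF2alpha arm, had the smallest p of the 10. It was at 81.8, 93.9, 79.0 and 82.1 CPM in ABT263 animals 15, 16, 17 and 18, against 95.5, 121, 126 and 115 CPM in control compound animals 6, 8, 9 and 10. The highest ABT263 kidney lay just below the lowest control compound kidney. The log2 fold change was -0.44 ± 0.10 (95% interval -0.66 to -0.22), with an edgeR adjusted p of 0.566. The call differed between tools, since Atf4 passed under DESeq2 (-0.44, adjusted p = 0.0463) and under voom with sample quality weights (-0.54, adjusted p = 0.0172). Ddit3 was at 14.6, 15.7, 13.0 and 11.7 CPM in the ABT263 kidneys, against 16.6, 16.5, 17.0 and 17.7 CPM in the control compound kidneys. Its log2 fold change was -0.30 ± 0.12 (edgeR adjusted p = 0.816), and the control compound kidneys spread by 0.565 CPM (SD) around 16.9 CPM.

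The chaperones overlapped between the treatments. Hspa5 was at 423, 558, 439 and 445 CPM in the ABT263 kidneys, against 475, 627, 765 and 547 CPM in the control compound kidneys. Only animal 16 of the ABT263 kidneys exceeded the lowest control compound kidney, and the log2 fold change was -0.37 ± 0.15 (edgeR adjusted p = 0.816). Hsp90b1 was at 329, 367, 319 and 349 CPM with ABT-263, against 402, 429, 457 and 367 CPM with the control compound (-0.28 ± 0.09, edgeR adjusted p = 0.688). Sdf2l1 was at 11.8, 13.7, 7.82 and 10.9 CPM with ABT-263, against 14.4, 16.4, 17.4 and 12.1 CPM with the control compound (-0.45 ± 0.18, edgeR adjusted p = 0.827). For all 3 chaperone genes ABT263 animal 16 was the highest of its group and control compound animal 9 the highest of the table. Without ABT263 animal 16 the log2 fold changes were -0.47 for Hspa5, -0.31 for Hsp90b1 and -0.57 for Sdf2l1. Without control compound animal 9 they were -0.24 for Hspa5, -0.23 for Hsp90b1 and -0.37 for Sdf2l1.

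Xbp1 and Herpud1 overlapped between the treatments. Xbp1 was at 126, 235, 144 and 139 CPM in ABT263 animals 15, 16, 17 and 18, against 143, 182, 205 and 199 CPM in the control compound kidneys (-0.18 ± 0.20, edgeR adjusted p = 0.912). Animal 16 had the highest Xbp1 of the table, and without it the log2 fold change was -0.42 (adjusted p = 0.374). It was -0.076 without ABT263 animal 15, -0.11 without ABT263 animal 18, -0.12 without control compound animal 9 and -0.28 without control compound animal 6. Herpud1 was at 155, 249.985, 205 and 165 CPM with ABT-263, against 317, 182, 238 and 209.7 CPM with the control compound (-0.29 ± 0.19, edgeR adjusted p = 0.854). Its log2 fold change was -0.11 without control compound animal 6 and -0.19 without ABT263 animal 15.

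Asns and Chac1 had higher fitted levels with ABT-263 and Trib3 a lower one, each with overlapping groups. Asns was at 13.7, 25.0, 11.5 and 13.6 CPM with ABT-263, against 15.3, 10.5, 9.84 and 13.4 CPM with the control compound (0.38 ± 0.25, edgeR adjusted p = 0.850). Its higher mean rested on animal 16, without which the log2 fold change was 0.079. Trib3 was at 4.29, 2.54, 2.43 and 2.35 CPM with ABT-263, against 4.81, 3.61, 3.78 and 2.54 CPM with the control compound (-0.34 ± 0.27, edgeR adjusted p = 0.864). Its log2 fold change was -0.19 without control compound animal 6 and -0.59 without ABT263 animal 15. Chac1 was at 1.91, 2.20, 1.29 and 0.690 CPM with ABT-263, against 1.47, 1.90, 1.4998 and 0.798 CPM with the control compound (0.11 ± 0.39, edgeR adjusted p = 0.978). The Chac1 interval, -0.75 to 0.97, left a change in either direction within reach at 10 to 40 counts per kidney.

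**Figure D5:**
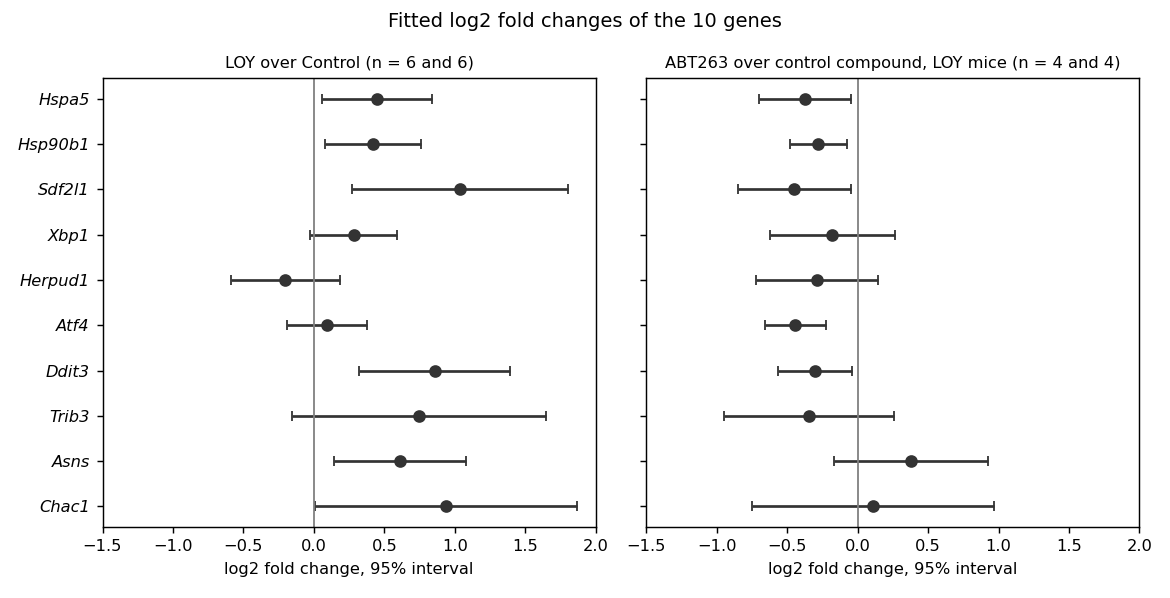
Fitted log2 fold changes (points) with 95% intervals (bars) of the 10 genes, LOY over Control on the left and ABT263 over control compound in LOY mice on the right. Intervals lie above 0 for Sdf2l1, Chac1, Ddit3, Asns, Hspa5 and Hsp90b1 on the left and below 0 for Atf4, Sdf2l1, Hspa5, Ddit3 and Hsp90b1 on the right, before adjustment over all genes.

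Set side by side, the comparisons share no sample (animal numbers recur between the tables), and the plot of intervals gives each gene's own values. Hspa5 was at 0.45 with LOY and -0.37 with ABT-263, Hsp90b1 at 0.42 and -0.28, Sdf2l1 at 1.04 and -0.45, and Ddit3 at 0.86 and -0.30, all as log2 fold changes. Atf4 had 0.094 with LOY and -0.44 with ABT-263. Herpud1 was negative in both, and Asns and Chac1 positive in both. The difference between the comparisons was not tested, since the tables were made apart, and levels were not compared across them.

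In the other pathway lists ABT-263 gave 0 genes past the threshold. ER chaperones and folding enzymes had 7 positive and 20 negative fold changes of 27 (median -0.057). Manf was at 47.6 ± 10.3 CPM with ABT-263 and 70.0 ± 14.4 CPM with the control compound (SD, n = 4 each; -0.56 ± 0.17, edgeR adjusted p = 0.671), and passed under voom (-0.74, adjusted p = 0.0487). Dnajb11, a J-protein partner of BiP, was at 86.2 to 98.3 CPM with ABT-263 and at 100.1 CPM or more with the control compound (-0.22 ± 0.08, adjusted p = 0.736). Genes of ER-associated degradation and translocation had 10 positive and 28 negative of 38 (median -0.049), with Derl3 at -0.75 ± 0.32 (adjusted p = 0.827) and the ubiquitin-conjugating enzyme Ube2j1 at -0.17 ± 0.07 (adjusted p = 0.816). ATF4 and CHOP targets had 19 positive and 15 negative of 34 (median 0.035). Phgdh, which starts serine synthesis, had the smallest p of that list (0.61 ± 0.23, adjusted p = 0.770), followed by the lipoprotein receptor Vldlr (0.19 ± 0.08, adjusted p = 0.827). The list of aminoacyl-tRNA synthetases, Xpot included, had 12 of 13 positive (median 0.052), with the smallest p for Lars (0.21 ± 0.098, adjusted p = 0.827) and Mars1 (0.12 ± 0.09, adjusted p = 0.864). Sensors and eIF2alpha regulators had 10 of 19 positive (median 0.0074), with the smallest p for the sensor Atf6 (0.19 ± 0.09, adjusted p = 0.827) and its relative Atf6b (0.24 ± 0.13, adjusted p = 0.844).

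Cell type markers also differed in fitted level between the treatments, with 0 past the threshold. Macrophage markers, 7 of 8 with a negative fold change, summed to 339 to 387 CPM with ABT-263 and 362 to 626 CPM with the control compound. Plasma and B cell markers, 7 of 8 tested with a negative fold change, summed to 50.9 to 73.3 CPM with ABT-263 and 90.0 to 124 CPM with the control compound; Tnfrsf17 was at 0 counts in at least 1 kidney. T cell markers, 7 of 7 with a negative fold change, summed to 9.69 to 13.5 CPM with ABT-263 and 9.98 to 24.9 CPM with the control compound. Proximal tubule markers, 5 of 10 negative, summed to 8357 to 12146 CPM with ABT-263 and 9892 to 11841 CPM with the control compound. Adipocyte markers, 4 of 4 tested with a positive fold change (median 1.20), summed to 270.1, 41.0, 79.2 and 262 CPM in ABT263 animals 15, 16, 17 and 18 and to 46.7 to 119 CPM with the control compound. Injured tubule markers, 3 of 6 negative, summed to 1512 to 18857 CPM with ABT-263 and 2265 to 3432 CPM with the control compound. Spp1 made up most of that sum, at 5753 ± 8034 CPM with ABT-263 and 2797 ± 478 CPM with the control compound (SD). The part of these cells in the stress gene values was not tested.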

How the data were processed

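RNA from whole kidneys was sequenced, 1 library per animal, and the authors deposited 2 tables of gene counts, used here as raw counts; the genome build is mm10, per the submitters' processing notes. For the aligner, the counter and its annotation and strand handling, the source is silent (not given in the sources used here). Ddit3 (with Mars and Gm4189 on the other strand), Herpud1 and Hsp90b1 share stretches with annotated overlapping genes. Reads within those stretches cannot be told apart by gene. The entry for reads without a gene (0.223% to 0.401% of counts, LOY table) was left out. The 10 genes, the pathway lists and the marker lists were chosen with earlier results of these data known.

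Each table was fitted whole and apart with edgeR 4.0.16 in R 4.3.3 (TMM, filterByExpr with a minimum count of 10 and total of 15, robust quasi-likelihood F test, Benjamini-Hochberg adjustment, threshold 0.05); all 10 genes passed the filter in both. SE was taken as the size of the log2 fold change divided by the root of its F statistic. CPM use TMM-scaled totals, and log2 CPM a prior count of 2. Alternatives were DESeq2 1.42.0 and limma 3.58.1 (voom, quality-weighted). The p-values of these fits set each group difference against the spread between animals. Named pathway genes are those past the threshold and the 2 of smallest p per list and comparison, with Vldlr and Sesn2 added for LOY. Coordinates are GENCODE M21 (GRCm38).

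Counts were simulated over 14978 genes in the LOY design and 16956 genes in the ABT263 design. Each gene had 1 dispersion for both groups, with no effect of animal number and no outlying kidney. With 67 genes changed 1.5-fold and 66 changed 2-fold, edgeR recovered 25.4% and 68.2% of them in the LOY design. In the ABT263 design it recovered 31.3% and 63.6%. Unchanged genes were 17.6% and 16.1% of DESeq2 calls in the LOY and ABT263 designs, and 5.30% and 2.42% of edgeR calls. For voom they were 3.91% and 1.61% of calls. The real groups spread unequally (Hspa5, SD 183 CPM in LOY and 51.3 CPM in Control kidneys), so these simulated rates may not hold for them.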

Additional observations from a re-analysis of the deposited data

Results flagged for a closer look

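In 9 of 40 sets of CPM values (10 genes in 4 groups), 1 kidney stood far from the rest of its group, by the gap to its neighbour over the range. The cutoff gives about 1 in 20 only for independent values from a normal distribution. CPM were not log-transformed here and the genes share kidneys, so the 9 sets were not tested against chance. Each flagged kidney was the highest of its group. In LOY animal 10, Trib3 was at 9.91 CPM, against 3.11 CPM in the next LOY kidney. In LOY animal 9, Sdf2l1 was at 44.3 CPM, against 22.1 CPM in the next. Among Control kidneys, animal 3 stood out with Sdf2l1 at 19.96 CPM and Hsp90b1 at 537 CPM, and animal 13 with Xbp1 at 238 CPM. In ABT263 animal 16, Asns was at 25.0, Hspa5 at 558 and Xbp1 at 235 CPM, each above the other 3 ABT263 kidneys, and this kidney also had the highest summed injured tubule markers of its table (18857 CPM). In ABT263 animal 15, Trib3 was at 4.29 CPM, against 2.54 CPM in the next.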

How the results depend on the processing

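None of the 10 genes passed in either comparison under the other scalings (totals alone, upper-quartile factors, median-ratio factors) or filters. With LOY, the count past the threshold of the 10 was 1 under DESeq2 and 3 under voom (0 as reported), and 0 to 1 when each kidney was left out; with ABT-263 it was 1 under DESeq2 and 1 under voom, and 0 when each kidney was left out. Genes past the threshold over the whole LOY table, 176 as reported, were 105 with totals alone, 866 under DESeq2, 1062 under voom, 0 with animal number as a term (1194 at an unadjusted p under 0.05), 451 among the animals numbered above 10, 29 without LOY animals 8 and 10, and 0 to 607 when each kidney was left out. That count was 607 without Control animal 3, 0 to 9 without Control animal 11, 12, 13, 16 or 17, and 96, 1, 116 and 296 without LOY animals 9, 10, 14 and 18. Over the ABT263 table, 0 as reported, they were 44 under DESeq2, 11 under voom and 0 to 9 when each kidney was left out (9 without control compound animal 6, 3 without ABT263 animal 16, 1 without ABT263 animal 18). Of 220 recomputed values of the 10 genes with LOY 5 turned sign, and of 150 with ABT-263 4 did. With LOY these were Herpud1 (0.046 with animal number as a term, 0.0046 among the animals numbered above 10), Chac1 (-0.32) and Xbp1 (-0.032) among the animals numbered above 10, and Atf4, which ranged from -0.026 to 0.18 when each kidney was left out. With ABT-263, Chac1 was -0.034 under voom and -0.12 to 0.34 when each kidney was left out. The cause was not tested. Without the 2 kidneys farthest from the median, r turned to -0.10 for Hspa5 with Xbp1, -0.20 for Atf4 with Trib3, 0.29 for Ddit3 with Trib3 and -0.96 for Hspa5 with Ddit3 within LOY kidneys, and to -0.83 for Ddit3 with Trib3 within Control kidneys (4 kidneys left). The settings for the named pathway genes were chosen after seeing the data. No paired analysis was possible because the groups compared share no animal number. The low counts of Chac1 and Trib3 limit what could be detected for them.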
